A study of Homo sapiens with 9 samples.

Results

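Of 9 RNA-seq libraries from cells labelled HepG2, 6 were compared here as 2 sets of 3 that cut across the treatment labels. One set held control 1, SKF-96365 1 and 2-APB 3, and is called the control 1 set. The other held control 2, 2-APB 1 and 2-APB 2, and is called the control 2 set. The remaining 3 libraries (control 3, SKF-96365 2 and SKF-96365 3) are shown beside them. The sets were chosen from the measured similarity of the libraries over all genes. Every gene value in the 6 libraries was therefore part of the choice, and differences between the sets are given as a description with no test.

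HepG2 is a human hepatocellular cell line, and the tissue label of all 9 libraries was liver. The labelled groups, of 3 libraries each, were a control with no treatment, SKF-96365, called an inhibitor in the series text, and 2-APB, called an agonist there. Both compounds are known to act on several calcium-permeable channels, including store-operated calcium entry and transient receptor potential (TRP) channels. Titles of the 2-APB libraries carried ABP and their columns TRPV2, so their identity rests on the treatment label. The labels gave no dose, exposure time, vehicle or batch, and did not say whether libraries of a group came from separate cultures, so p-values measure only the spread between these samples, which may be technical. Values were gene counts divided by 1 size factor per library, called normalized counts below, and the 6 libraries held 14786059 to 19026545 reads each.

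The label of a second cell state was only partly borne out by the similarity of the libraries. Correlations were taken over 17492 genes with a normalized count of 10 or more in at least 3 libraries. The 3 libraries of the control 1 set had Pearson correlations of 0.984 to 0.988 with each other on the log2 scale. In the control 2 set, 2-APB 1 and 2-APB 2 correlated at 0.990. Their counts differed by 2.14 times the sampling noise (chi-square per degree of freedom), against 7.51 to 32.6 for the other 14 pairs. The chi-square used those genes with 20 or more reads over the pair. Control 2 correlated at 0.975 and 0.976 with these 2 libraries and at 0.978 with control 1. It was thus no closer to its own set than to control 1. In a principal component analysis of the 6 libraries, the first component (33.6% of the variance) held control 2 at 59.6 and the other 5 libraries between -19.6 and 4.12. The second (29.3%) held the control 1 set at 21.6 to 27.0, 2-APB 1 and 2-APB 2 at -35.9 and -32.0, and control 2 at -3.18. The control 2 set is therefore described below also by its 2 pieces, control 2 alone and the 2-APB 1 and 2-APB 2 pair.

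**Figure D1:**
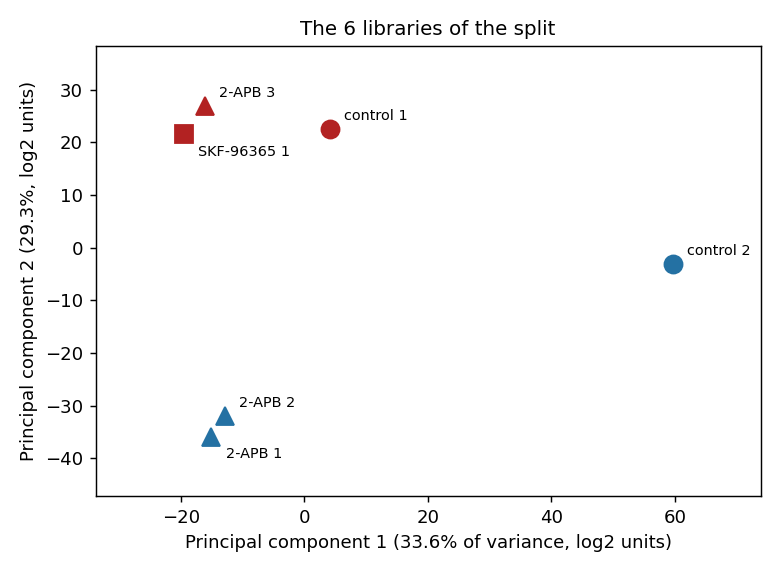
Principal component analysis of the 6 libraries on log2 normalized counts, with the first component on the x axis and the second on the y axis (log2 units). Red marks the control 1 set and blue the control 2 set, circles are control, the square SKF-96365 and triangles 2-APB. Control 2 stands alone at 59.6 on the first component, and the second holds the control 1 set above 2-APB 1 and 2-APB 2.

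Several of the gene lists described below belong to 3 regulatory systems. NF-kB transcription factors are held in the cytoplasm by inhibitor proteins and enter the nucleus after signals such as interleukin 1, where they switch on genes of chemokines, which attract neutrophils and other leukocytes, and of their own inhibitors. SREBP transcription factors are kept in the endoplasmic reticulum by INSIG proteins while sterols are plentiful, and when released they switch on cholesterol synthesis and uptake and, for SREBP-1, fatty acid synthesis. MAP kinase signalling from growth factor receptors turns on immediate early genes within minutes, and with them the phosphatases and Sprouty proteins that dampen it.

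The 4 CXCL chemokine genes with the clearest separation lie on chromosome 4 and share the letters GGAATTTCC just before their start sites. Their promoters are shown because these genes were higher together in the control 1 set. Each line gives the 110 bases before the RefSeq start (GRCh38.p14), 5′ to 3′ on the gene's own strand, with the GGAATTTCC match in capitals. CXCL8 lies at chr4:73740459-73740568 (plus strand), CXCL1 at chr4:73869283-73869392 (plus), CXCL2 at chr4:74099196-74099305 (minus) and CXCL3 at chr4:74038690-74038799 (minus).
CXCL8: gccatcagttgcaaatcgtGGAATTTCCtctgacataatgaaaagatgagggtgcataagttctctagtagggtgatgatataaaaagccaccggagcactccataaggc
CXCL1: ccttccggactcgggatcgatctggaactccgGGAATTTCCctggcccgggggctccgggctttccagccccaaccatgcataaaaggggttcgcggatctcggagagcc
CXCL2: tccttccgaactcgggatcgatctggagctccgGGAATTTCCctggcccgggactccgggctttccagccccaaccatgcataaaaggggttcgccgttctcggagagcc
CXCL3: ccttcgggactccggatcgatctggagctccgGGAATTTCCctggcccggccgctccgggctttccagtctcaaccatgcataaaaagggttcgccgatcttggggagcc
The match began at base -91 in CXCL8, -78 in CXCL1 and CXCL3, and -77 in CXCL2, counted from the start. CXCL1, CXCL2 and CXCL3 are close copies of each other, as the printed promoters show, and the counting method was not given in the sources used here, so reads shared among them may have been split.

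Searched on both strands in windows of 300 bases (250 before the start and 50 from it on), GGAATTTCC was found in 162 of 35116 RefSeq promoters (0.461%). Counted per gene, as the lists below are, these were 153 of 27305. Of 19 tested members of the NF-kB and inflammatory list with an entry in that table, 10 held it: the 4 genes above, NFKBIZ, NFKBIA, NFKB1, NFKBIB, REL and ICAM1. The list was drawn up around NF-kB, so this share is a description only. Of the members that stood apart between the sets by the rule below, 5 of 10 held GGAATTTCC, as did 5 of the 9 others. For the sterol element, TCACNCCAC was found in 1.128% of all promoters (379 of 27305 genes). It was found in 1 of 18 matched cholesterol genes (SREBF2) and in 0 of 12 fatty acid genes. CACCCCAC was found in 2.794% of all promoters (926 of 27305 genes) and in the same 1 cholesterol gene.

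A gene was called apart when the lowest value of one set lay above the highest of the other and the mean log2 values differed by at least 1.5-fold. A normalized count of 10 or more in 3 or more libraries was reached by 17492 genes. Of these, 415 (2.37%) were apart and higher in the control 1 set, and 672 (3.84%) were apart and lower, 6.21% in all. Without a minimum size, 2104 genes (12.03%) lay higher without overlap and 2068 (11.82%) lower, 23.85% in all. At a minimum of 2-fold the counts were 142 (0.812%) and 200 (1.14%), 1.96% in all, and past 4-fold they were 13 and 11. The median difference of all genes was 0.01 on the log2 scale. SLC7A11 (1.5008-fold) and MAMDC2 (1.501) lay just inside the 1.5-fold limit, and LYAR (1.4989) and FKBP5 (1.4981) just outside. As these genes defined the sets, nothing is read from the counts themselves, and the shares serve as the background for the gene lists. In bulk RNA, fewer cells making a transcript and less of it per cell cannot be told apart.

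Among 38 lists of named pathways and functions, the separation was concentrated in a few. In the NF-kB and inflammatory list, 10 of 23 tested members were apart and higher and 0 lower, with a median difference of 0.58. Immediate early genes had 6 of 24 higher and 1 lower, and MAP kinase feedback genes 5 of 17 higher and 0 lower. In the other direction, 8 of 13 fatty acid synthesis genes and 10 of 25 cholesterol genes were lower and 0 higher. Integrins had 4 of 13 lower and 1 higher. NRF2 targets had 4 of 19 lower and 1 higher (AKR1C1, 0.80) with a median of -0.06, and 2 lower without 2-APB 3. None was apart in either direction among 35 DNA replication genes, 34 mitosis genes, 40 nuclear genes of oxidative phosphorylation, 30 proteasome subunits, 19 heat shock chaperones and 19 tRNA synthetases. Some of these lists still leaned higher by less than 1.5-fold. Positive were 32 of 35 DNA replication genes (median 0.26), 16 of 19 heat shock chaperones (0.26), 33 of 40 oxidative phosphorylation genes (0.16) and 28 of 30 proteasome subunits (0.12). In that order, 3, 6, 15 and 8 lay higher without overlap and 0, 0, 1 and 0 lower, against 12.03% and 11.82% of all genes. SKF-96365 1 did not share the lean of the DNA replication genes. Its median difference from the control 2 set was -0.03 for them, and 0.18, 0.17 and 0.08 for the other lists in that order. Medians were 0.09 for mitosis genes and 0.03 for tRNA synthetases. These lists were drawn up with earlier results of these data known, so the shares describe the sets and are no independent evidence.

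**Figure D2:**
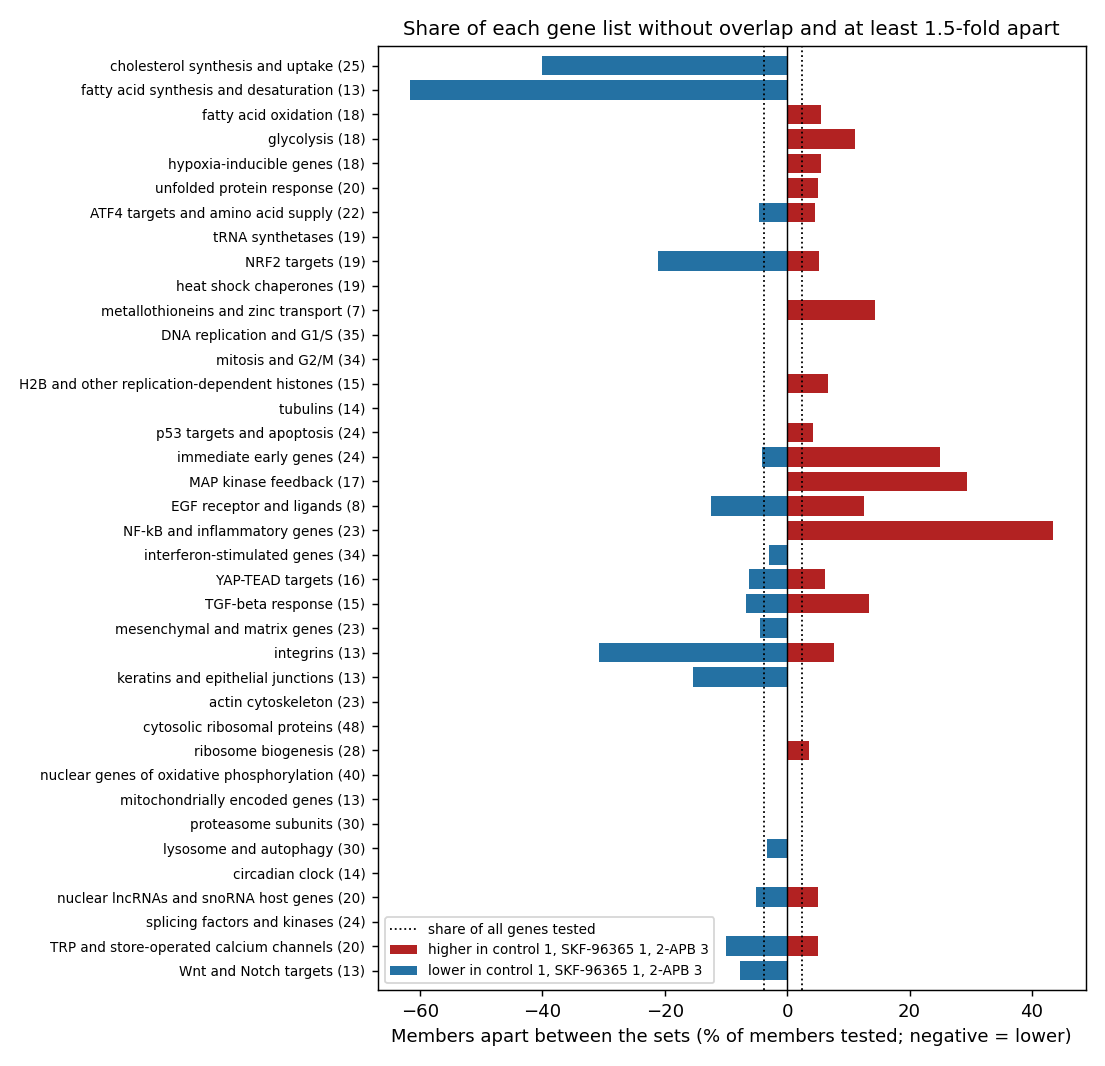
Share of the tested members of each gene list (number in parentheses) that were apart between the sets, in percent, with members higher in the control 1 set to the right in red and members lower to the left in blue. Dotted lines mark the shares among all genes tested, 2.37% and 3.84%. The bars of the NF-kB and MAP kinase feedback lists reach far right of the line and those of fatty acid and cholesterol synthesis far left.

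CXCL8, the neutrophil chemokine interleukin 8, showed the largest difference of the named genes. In the control 1 set its normalized count was 686 (control 1), 2828 (SKF-96365 1) and 1361 (2-APB 3), against 113 in control 2, 156 in 2-APB 1 and 125 in 2-APB 2. The lowest library of the control 1 set was thus several times the highest of the other, and the mean log2 values differed by 3.40 (10.6-fold). Control 3, SKF-96365 2 and SKF-96365 3, at 998, 995 and 1012, fell inside the range of the control 1 set. CXCL1, a chemokine of the same receptor family, stood at 1839, 2700 and 2110 in control 1, SKF-96365 1 and 2-APB 3, and at 320, 411 and 396 in control 2, 2-APB 1 and 2-APB 2. The sets differed by 2.55 on the log2 scale, and the remaining 3 libraries lay between them at 1057 to 1081.

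CXCL2 stood at 307, 516 and 302 in the control 1 set, in the order given above, and at 92.3, 74.5 and 80.7 in the control 2 set. CXCL3 had fewer counts, at 54.7, 124 and 56.2 against 12.2, 10.96 and 20.6. Both were more than 4-fold higher in the control 1 set, by 2.13 and 2.29 on the log2 scale, with SKF-96365 1 the highest library. CCL20, a chemokine for lymphocytes and dendritic cells, stood at 11.6, 70.8 and 24.7 against 10.1, 5.48 and 6.87. Its control 1 value barely cleared that of control 2, and the difference of 1.78 rested mostly on the other libraries. CCL2, a monocyte chemokine of the same list, overlapped between the sets, with a difference of 0.06.

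IL1B, which encodes the cytokine interleukin 1 beta, stood at 538, 1532 and 709 in the control 1 set, against 34.5 in control 2 and 226 and 278 in 2-APB 1 and 2-APB 2. Control 2 was far below the 2-APB pair, so the difference of 2.68 was uneven across the set. IL1A, encoding interleukin 1 alpha, followed a similar order, at 117, 300 and 191 against 47.7, 114 and 112. Here control 1 lay only just above 2-APB 1. IL6, another inflammatory cytokine, stood at 635, 930 and 620 against 604, 355 and 352, so that control 2 sat near the control 1 set. INHBA, which encodes the activin subunit beta A, stood at 122, 161 and 127 against 18.3, 89.9 and 87.6.

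Genes of NF-kB subunits and inhibitors were mixed. The subunit genes NFKB1, RELA and REL overlapped between the sets, and NFKB2 and RELB lay higher without overlap by 0.23 and 0.47 on the log2 scale. NFKBIA and TNFAIP3, which encode feedback inhibitors of the pathway, overlapped as well. NFKBIZ, an inducible nuclear member of the inhibitor family, was apart at 1040, 1437 and 1165 against 804, 589 and 624. BIRC3, a ubiquitin ligase of the pathway and an inhibitor of apoptosis, was apart at 2447, 4496 and 3849 against 2079, 1821 and 1918. ICAM1, a leukocyte adhesion receptor, and LIF, a cytokine, overlapped and were highest in the remaining 3 libraries. Summed leukocyte markers were 3.68 to 4.97 CPM (counts scaled to a common library total) in the control 1 set and 4.27 to 7.05 in the control 2 set, with 9 of 12 markers below a value of 10 in every library, and CD3E and CD3D at 0.

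**Figure D3:**
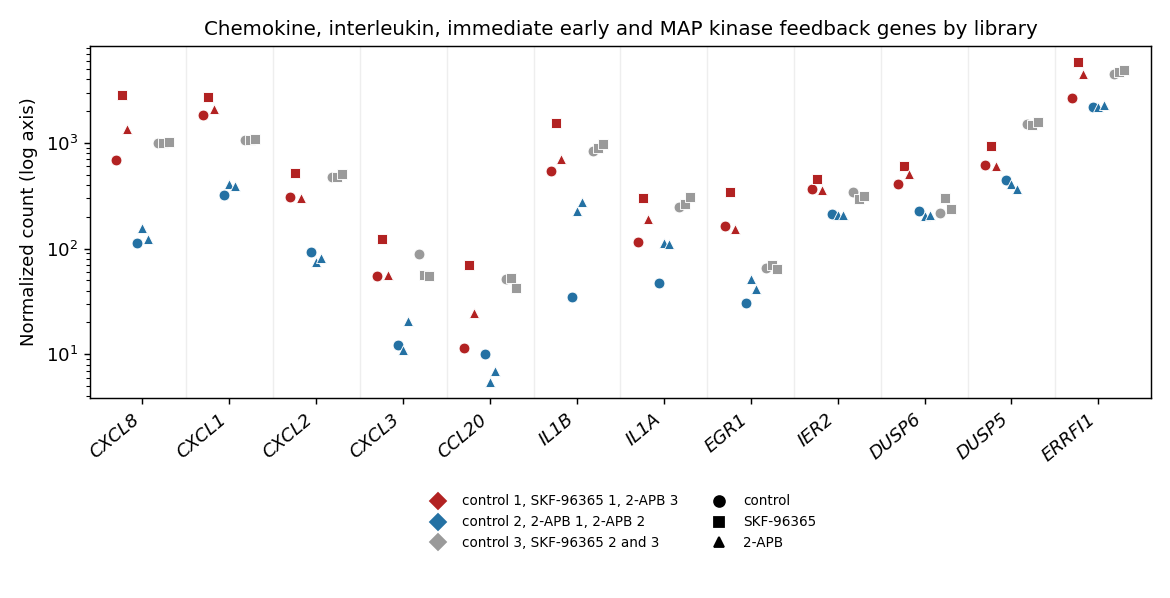
Normalized count (log axis) of 12 chemokine, interleukin, immediate early and MAP kinase feedback genes, with 1 point per library. Red is the control 1 set, blue the control 2 set and grey the remaining 3 libraries, and the shape gives the label. For CXCL8 all red points lie at or above 686 and all blue points at or below 156.

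Among immediate early genes, EGR1, a zinc finger factor induced by growth factors, separated most. It stood at 163, 342 and 152 in the control 1 set and at 30.4, 51.5 and 41.2 in the control 2 set, a difference of 2.32 on the log2 scale. The remaining 3 libraries lay between, at 63.5 to 69.9. IER2, a nuclear protein of the same class, stood at 366, 458 and 362 against 211, 208 and 210, and was even within the control 2 set. IER3, MAFF and KLF10 were apart by 0.90, 0.83 and 0.64. FOS, the partner of JUN in the AP-1 dimer, had few counts, at 29.5, 79.5 and 39.4 against 28.4, 21.9 and 17.2. JUN lay higher without overlap at 2329, 2810 and 2495 against 1579, 1834 and 1751, a difference of 0.56 that missed the 1.5-fold limit. JUND was the 1 member apart in the other direction, by -0.74. MYC and ATF3 overlapped.

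The MAP kinase feedback genes followed. DUSP6, a phosphatase that inactivates ERK, stood at 406, 608 and 510 in the control 1 set and at 228, 203 and 210 in the control 2 set, a difference of 1.23. DUSP5, a nuclear phosphatase for ERK, stood at 623, 935 and 607 against 442, 408 and 368. ERRFI1, an inhibitor of the EGF receptor, stood at 2653, 5858 and 4499 against 2172, 2169 and 2308, with control 1 the nearest to the other set. SPRY4, a Sprouty inhibitor, and ETV4, an ETS factor downstream of ERK, were apart by 0.77 for each, and in both control 2 was the nearest to the control 1 set, at 546 and 625 against at most 398 and 403 in the 2-APB pair. Among receptors and ligands, HBEGF, an EGF receptor ligand, was higher by 0.80 and ERBB3, a receptor of the family, lower, at -0.66.

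Fatty acid synthesis genes were lower in the control 1 set, with all 13 tested members negative, 12 without overlap and 8 apart. Among all genes tested, 11.82% lay lower without overlap and 3.84% were apart and lower. SCD, the desaturase that makes monounsaturated fatty acids, had normalized counts of 4028 for control 1, 3356 for SKF-96365 1 and 2175 for 2-APB 3, against 10041 in control 2, 8663 in 2-APB 1 and 8747 in 2-APB 2. The difference was -1.56, and the remaining 3 libraries were higher than both sets, at 17536 to 19144. FASN, fatty acid synthase, stood at 11282, 7313 and 7584 against 18738, 15691 and 15287. FADS2, a desaturase of polyunsaturated fatty acids, stood at 290, 239 and 212 against 639, 451 and 503. These differed by -0.95 and -1.10 on the log2 scale, with no library of one set inside the range of the other.

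LPIN1, a phosphatidate phosphatase, stood at 1857, 1543 and 1222 against 2981, 2662 and 2759. ACACA, which makes malonyl-CoA, stood at 4263, 3271 and 3117 against 5956, 5561 and 5654. SREBF1, the gene of SREBP-1, was uneven in the control 2 set, at 2870 in control 2 but 4514 and 4254 in the 2-APB pair, against 2281 to 2488 in the control 1 set. ACSS2, which makes acetyl-CoA from acetate, and ME1, an NADPH source, were lower too, with log2 differences of -0.60 and -0.78. ELOVL6 and ELOVL5, elongases, and ACLY lay lower without overlap but by less than 1.5-fold. PGD, another NADPH source, overlapped.

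Cholesterol genes had the same direction, with 24 of 25 negative, 16 without overlap and 10 apart, and a median of -0.52. The 10 became 4 without 2-APB 3 and 6 without control 2. Among all genes tested, 11.82% lay lower without overlap and 3.84% were apart and lower. INSIG1, the SREBP retention protein and itself a target, stood at 926, 948 and 530 in the control 1 set and at 1869, 1537 and 1481 in the control 2 set. The difference was -1.06, and the remaining 3 libraries were highest at 3091 to 3389. HMGCS1, an early enzyme of the mevalonate pathway, stood at 1088, 1106 and 675 against 2204, 1486 and 1445. Control 2 was well above the 2-APB pair.

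LSS, which cyclizes squalene epoxide, stood at 1431, 1156 and 956 against 2276, 1879 and 1840. DHCR7, the last enzyme of cholesterol synthesis, stood at 914, 677 and 566 against 1285, 1180 and 1244. In both genes 2-APB 3 was the lowest library and control 2 the highest of the 6. MSMO1, MVK, STARD4 and MVD were apart by -0.66, -0.62, -0.63 and -0.59, SREBF2 lay lower without overlap with a difference of -0.47, and PMVK had a difference of 0.004.

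**Figure D4:**
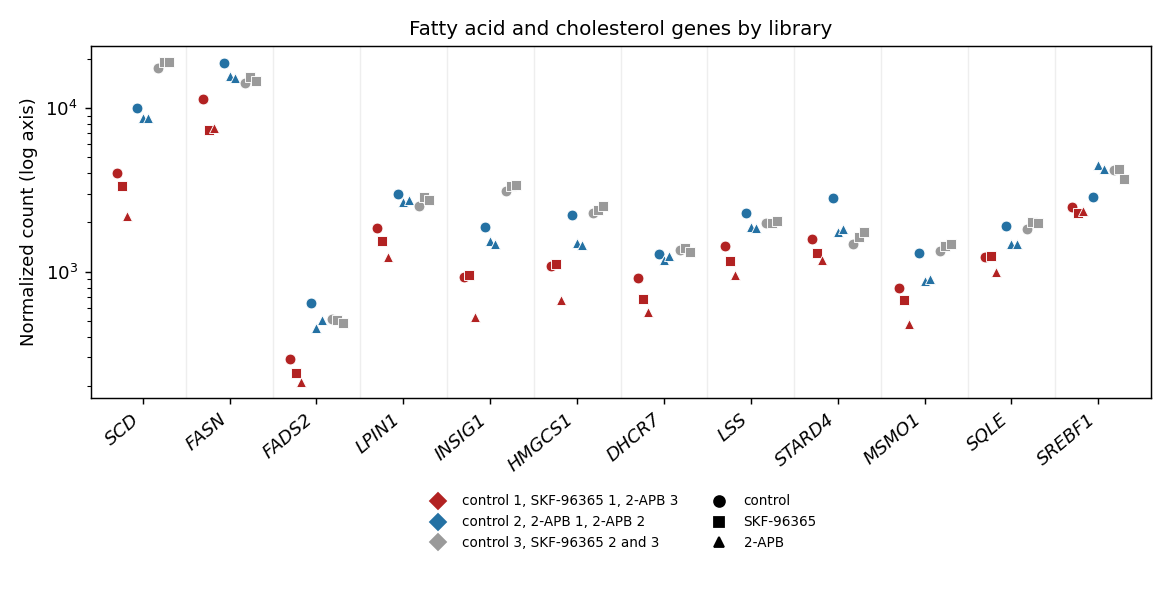
Normalized count (log axis) of 12 fatty acid and cholesterol genes, with 1 point per library. Colours and shapes are red for the control 1 set, blue for the control 2 set, grey for the remaining 3, circles for control, squares for SKF-96365 and triangles for 2-APB. In SCD the red points lie at 2175 to 4028, the blue at 8663 to 10041 and the grey at 17536 to 19144.

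Among integrins, 4 of 13 were apart and lower and 1 higher. ITGB4, the integrin subunit that binds laminin in hemidesmosomes, stood at 4074, 4673 and 4614 against 7413, 10344 and 10411, a difference of -1.06. Its partner ITGA6 went the other way, at 19666, 25099 and 23422 against 10220, 14040 and 14662, a difference of 0.82. COL17A1, a hemidesmosomal collagen, was higher as well, at 117, 112 and 122 against 31.4, 43.8 and 46.4. ITGA1, ITGB3 and ITGB8 were lower, with differences of -0.80, -0.66 and -1.12 on the log2 scale. ITGA3, a laminin receptor subunit, and ITGB1, the partner of many alpha subunits, overlapped.

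The mesenchymal and matrix list as a whole was near the background, with 1 of 23 members apart and lower and 0 higher, 5 lower and 2 higher without overlap, and a median of -0.15. Its 1 member apart was FN1, which encodes fibronectin and stood at 2522, 2869 and 2160 against 8733 in control 2 and 4393 and 4583 in the 2-APB pair. LAMB1, a laminin chain, lay lower without overlap by a difference of -0.45, while VIM, vimentin, lay higher by 0.50. CDH1, E-cadherin, was lower, at 17.9, 13.1 and 18.7 against 44.6, 65.8 and 57.5. LOX, which cross-links collagen, was higher at 5933, 7583 and 6175 against 1830, 4040 and 4119. PDGFB, a growth factor, stood at 99.97, 104 and 105 against 205, 261 and 253, and its receptor gene PDGFRB at 496, 303 and 392 against 875, 901 and 957. Summed fibroblast and pericyte markers, a list that holds PDGFRB, were 101 to 123 CPM in the control 1 set and 137 to 198 in the control 2 set, with DPT at 0 in all 9 libraries and DCN at or below 4.2. Their part in the FN1 and PDGFRB differences was not tested.

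The other genes with the widest gaps between the sets had no single function. SERPINB7, a protease inhibitor, stood at 715, 694 and 732 against 114, 294 and 309. G0S2, an inhibitor of the lipase ATGL, stood at 1313, 2035 and 1660 against 465, 608 and 530, and FAM83A at 148, 253 and 277 against 60.9, 72.4 and 69.6. GPR3, a receptor that raises cyclic AMP, was apart by 1.44, and KRTAP2-3, one of a family of near-identical keratin-associated genes, by 1.51. SERPINB7 was even in the control 1 set and varied in the other, whereas FAM83A did the reverse.

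On the lower side, PLEKHS1 showed the widest gap, at 32.6, 42.8 and 25.6 against 280, 174 and 131, a difference of -2.46. OLMALINC, a non-coding RNA beside SCD, stood at 76.8, 69.0 and 72.0 against 206, 229 and 235. HOGA1, a mitochondrial aldolase, stood at 105, 93.5 and 89.7 against 273, 262 and 282. Both were tight within each set, and the remaining 3 libraries lay at 185 to 198 for OLMALINC and 268 to 271 for HOGA1. PCDH7, SLC12A8, ALPP, H3C6, VSIR and ABLIM1 were apart by -1.60, -1.42, -1.27, -1.36, -1.07 and -1.18. ALPP and H3C6 belong to families of near-identical genes.

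TRPV2, the channel named in the columns of the 2-APB libraries, had low counts in every library. They were 112 (control 1), 169 (SKF-96365 1) and 137 (2-APB 3), against 51.7 in control 2, 95.4 in 2-APB 1 and 102 in 2-APB 2. The difference was 0.78, with most of it from control 2, and the remaining 3 libraries were highest at 188 to 209. Of 20 tested TRP, store-operated and calcium pump genes, 1 was apart and higher and 2 lower, against 2.37% and 3.84% of all genes tested. ORAI3, a store-operated channel subunit, stood at 31.6, 44.5 and 43.4 against 53.8, 75.6 and 80.7, and ATP2B1, a plasma membrane calcium pump, at 1463, 1254 and 1116 against 2310, 1854 and 1868. ORAI1, ORAI2, STIM1 and STIM2 overlapped.

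Genes of growth moved in small steps. All 48 cytosolic ribosomal protein genes were higher on average in the control 1 set, 34 of them without overlap, but by 0.04 to 0.36 on the log2 scale, so that none was apart. Among all genes tested, 12.03% lay higher without overlap. All 28 ribosome biogenesis genes were positive with a median of 0.35, and 12 did not overlap. Only ODC1, the polyamine enzyme, was apart among them, at 3670, 4389 and 3957 against 2205, 2231 and 2352. Apart genes were shorter in both directions, with a median length of 2155 bases when higher and 2686 when lower, against 3148 for the rest. Protein-coding genes made up 63.6% of those higher and 54.5% of those lower, against 74.7% of all genes tested. Of the 415 higher and 672 lower genes, 194 and 290 averaged 50 or more, against 12381 of 17492 tested. Across 16985 genes Spearman's rho of the difference with length was -0.09 and with GC content 0.10, as a description across genes. The part of length in these small shifts was not tested.

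Glycolysis had 2 of 18 genes apart and higher, against 2.37% of all genes tested. Of the 2, HK2, hexokinase 2, stood at 2368, 4141 and 3341 against 1749, 1627 and 1711. ANGPTL4, a secreted lipase inhibitor in the fatty acid oxidation list, was higher at 466, 950 and 701 against 113, 282 and 272. Interferon-stimulated genes were mostly lower, with 30 of 34 negative and 10 lower without overlap, but 1 apart (IRF9, -0.63). Among all genes tested, 11.82% lay lower without overlap and 3.84% were apart and lower.

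Control 1 and control 2 carry the same label, as do 2-APB 3 and the 2-APB pair, so the sets can be described inside 2 labels that share no library. The 415 higher genes had a median of 0.82 for control 1 minus control 2 and 0.81 for 2-APB 3 minus the mean of 2-APB 1 and 2-APB 2, and the 672 lower genes -0.72 and -0.89. Both the direction and the size of these medians follow from how apart genes were chosen, and nothing is read from their likeness. CXCL8 differed by 2.60 inside the controls and 3.28 inside 2-APB, SCD by -1.32 and -2.0, and INSIG1 by -1.01 and -1.51. Over all 17492 genes the correlation of the 2 differences was weak, at a Pearson r of 0.17 and a Spearman rho of 0.22, described across genes, which are not independent replicates. Among the 12381 genes with a mean of at least 50, which are those plotted, r was 0.28, and with no filter on low values it was 0.05.

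**Figure D5:**
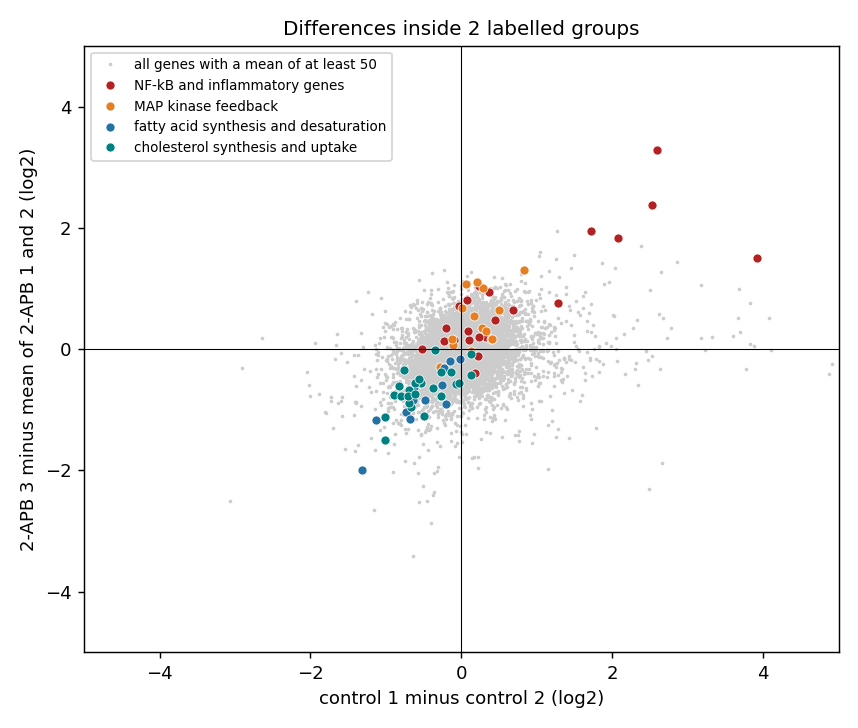
Difference between libraries of 1 label, with control 1 minus control 2 on the x axis and 2-APB 3 minus the mean of 2-APB 1 and 2-APB 2 on the y axis (log2). Each point is a gene with a mean of at least 50, with 4 gene lists coloured. CXCL8 lies at 2.60 and 3.28 in the upper right, and SCD at -1.32 and -2.0 in the lower left.

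The control 1 set was also set against each piece of the control 2 set by the same rule. The 2 comparisons share the 3 libraries of the control 1 set, and non-overlap is easier to reach against 1 library than against 2, so their counts stand side by side and are not compared. Against control 2 alone, 1758 of all genes tested (10.05%) were apart and higher in the control 1 set and 1286 (7.35%) lower. Against 2-APB 1 and 2-APB 2 alone, 619 (3.54%) were higher and 1303 (7.45%) lower. The NF-kB list had 9 of 23 members higher and 0 lower against control 2, and 12 higher and 0 lower against the pair. Immediate early genes had 8 of 24 higher and 0 lower, then 6 higher and 1 lower. Cholesterol genes had 1 of 25 higher and 15 lower against control 2, and 0 higher and 6 lower against the pair. Fatty acid synthesis had 0 of 13 higher and 8 lower in each. Integrins had 2 of 13 higher and 4 lower, then 1 higher and 5 lower. Interferon-stimulated genes had 0 of 34 higher and 9 lower against control 2, and 0 in either direction against the pair. Wnt and Notch targets had 7 of 13 higher and 1 lower against control 2, and 0 higher and 2 lower against the pair. Only 5 of these 13 averaged 50 or more, and between the full sets 0 were apart and higher and 1 lower.

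Control 3, SKF-96365 2 and SKF-96365 3 sided with neither set throughout. The median of these 3 libraries was counted with the higher set when at or above its lowest value. It was counted with the lower set when at or below its highest value. A median beyond both sets, as for SCD and INSIG1, thus counted with the nearer one. For the 415 genes higher in the control 1 set, the median of the 3 libraries lay with that set in 152 (36.6%), with the control 2 set in 178 (42.9%) and between in 85. For the 672 lower genes, it lay with the control 2 set in 433 (64.4%) and with the control 1 set in 140 (20.8%). The list counts that follow use non-overlap of any size. Of all 4172 such genes, in either direction, the median lay with the higher set in 1821, with the lower set in 1869 and between in 482. Of 16 cholesterol genes without overlap, it lay with the control 2 set in 14. Of 14 NF-kB list genes without overlap, it lay with the control 1 set in 11. In these genes of the 2 lists, chosen as non-overlapping, the 3 libraries mostly lay with or beyond whichever set was higher. The other members of both lists were not placed.

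Compared by their labels, with the 3 libraries of each group together, no gene passed limma's moderated test at an adjusted p under 0.05 in either contrast (0% of 17492). An unadjusted p under 0.05 was reached by 699 genes for SKF-96365 against control and by 489 for 2-APB against control, and the smallest adjusted p values were 0.7894 and 0.9995. CXCL8 differed by 1.73 (SE 0.97, limma adjusted p = 0.7894) under SKF-96365 and by -0.51 (SE 0.97, adjusted p = 0.9995) under 2-APB. SCD differed by 0.26 (SE 0.78, limma adjusted p = 0.9259) and -0.70 (SE 0.78, adjusted p = 0.9995). TRPV2 differed by 0.85 (SE 0.38, limma adjusted p = 0.7894) and 0.09 (SE 0.38, adjusted p = 0.9995). No labelled group lay within 1 set, and the SD of CXCL8 was 449 around a control mean of 599 and 705 around a 2-APB mean of 547 (n = 3 each). Count models on whole reads used 8 libraries, without SKF-96365 3. With edgeR's quasi-likelihood test, 0 genes were called in both contrasts (258 and 367 at an unadjusted p under 0.05), and with DESeq2 2 and 0 (241 and 350). Without control 3, limma called 173 genes for SKF-96365 against control, 111 higher and 62 lower.

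Most secreted liver proteins, but a minority of liver transcription factors, stayed below a value of 10 in all libraries. Of 18 secreted hepatocyte proteins, 15 stayed below 10 in every library, among them AFP, and ALB reached 11.8 at most. Their sum was 20.1 to 38.6 CPM, and SERPINA1 was the most counted at up to 523. Of 18 hepatocyte transcription factors, 6 stayed below 10 in every library, HNF4A among them. They summed to 276 to 294 CPM in the control 1 set and 214 to 246 in the control 2 set. NR2F2, the most counted of them, made up a large part of these sums, at 3116, 2987 and 3018 against 1799, 2326 and 2423. Of the 11 members tested, 6 were positive and 5 negative, with a median of 0.20. Endothelial markers summed to 6.42 to 10.5 and 4.81 to 5.88, with 3 of 10 below a value of 10 throughout. Neural markers summed to 71.7 to 100.1 and 58.1 to 84.5, with 7 of 12 below 10 throughout and ELAVL4, STMN2 and INSM1 at 0. Most of the neural sum was ENO2, at 1124, 1532 and 1554 against 898, 1173 and 1299. Mitochondrially encoded genes took 7.13% to 7.63% of the values in the control 1 set and 6.90% to 8.04% in the control 2 set, which overlap. By chromosome, between 3.92% (chromosome 13) and 7.89% (chromosome 4) of genes were apart, and median differences ran from -0.06 on chromosome 14 to 0.07 on chromosome 19.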

How the data were processed

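RNA-seq was measured in 9 libraries made from total RNA with a SMARTer kit, per the labels. The values are a signal in normalized counts: the authors scaled each library's gene counts by a DESeq2 size factor (version not stated), per the submitters' processing notes. The genome build, annotation, aligner, counting tool and strandedness are not given in the sources used here. Of 61093 genes in the deposited table, 60463 were given symbols through their Ensembl identifiers and 130 through GENCODE 29, while 488 loci had no name.

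Values were whole multiples of 1 step per library, within 0.001 of a read, for 100% of values. Whole reads could thus be recovered for each library, SKF-96365 3 included (step 0.992, 17424625 reads). The count models nevertheless left SKF-96365 3 out, so of that group they held only SKF-96365 1 and SKF-96365 2. The labels mention no molecular identifiers, and PCR reads without them do not count single molecules. Chi-square values, correlations and differences were computed on recovered reads or on log2 of the value plus 1.

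The members and the 44 gene lists were chosen with earlier results of these data known. Differences between the sets carry no test. Labelled contrasts used limma (3.58.1, trend option, R 4.3.3), two-sided, over 17492 genes and all 9 libraries, with Benjamini-Hochberg adjustment, and edgeR 4.0.16 and DESeq2 1.42.0 as alternatives. The fits were tested on simulated data. Named genes were, among apart genes with a mean of at least 50, the 12 per direction with the widest gap between sets, up to 4 members per list (6 where more than 8 were apart), the most abundant member where none was, and TRPV2. Other members named beside these were chosen after their values were seen. Alternatives were other pseudocounts (0.5 and 5), filters, scalings and minimum sizes, each library left out, and, for the labels, the replicate number as a block. Marker sums are CPM, computed here from the deposited values over each library's total. Some list members are not reported here.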

Additional observations from a re-analysis of the deposited data

How the results depend on the processing

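Reversal of sign was scored only for lists with 5 or more members apart and for named genes that were apart. None of these reversed under the other pseudocounts, scalings or with libraries left out, nor did the lists under other filters. Named genes were not scored under other filters. Among all lists and named genes, 25 of 532 list medians and 48 of 1128 gene values moved by more than the spread within the sets. The count of genes apart was 415 higher and 672 lower. It became 949 and 1321 with no filter, 194 and 290 for genes averaging 50 or more, 142 and 200 at 2-fold, and 2104 and 2068 with no minimum. Without 2-APB 1 and 2-APB 2, an alternative chosen after seeing the data, it was 1758 and 1286. Higher genes made up 38.2% of the total, 57.8% without that pair, 50.4% with no minimum and 37.3% to 44.0% under other scalings. Leaving out 1 library gave 510 to 681 higher genes (681 without control 1) and 770 to 1303 lower genes (1303 without control 2). Fewer libraries make non-overlap easier, so these counts cannot be read as weaker or stronger separation. The 10 cholesterol genes became 4 to 15 with 1 library left out (4 without 2-APB 3, 6 without control 2), and the 4 NRF2 targets 2 to 5 (2 without 2-APB 3). The counts for fatty acid synthesis ran from 7 to 9, NF-kB 10 to 12, immediate early genes 5 to 9, MAP kinase feedback 5 to 7 and integrins 4 to 5. The correlation of the 2 within-label differences, 0.17, was 0.0506 with no filter, 0.2827 with a mean of at least 50 and 0.1588 to 0.1608 with 1 library left out. For SKF-96365 against control, DESeq2 called 2 genes, and leaving out 1 library gave 0 to 173 calls (173 without control 3); the cause was not tested. For 2-APB every setting gave 0. With the replicate block, 0 and 0 genes were called. Deviations of same-numbered libraries correlated at -0.35 to 0.50, and 3 of 9 libraries were closest to one of their own number, so the numbers were not taken as pairs. Sets of 3 libraries and depths of 14786059 reads and more limit what is said of genes below a value of 10.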
